A study of Mus musculus with 12 samples.

Results

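Mature osteoblast cultures on Day 28 were compared with growth-arrested preosteoblast cultures on Day 5 in the mouse line MC3T3-E1, which was derived from newborn calvaria and lays down a mineralising collagen matrix in culture. The comparison used 6 of the 12 arrays of the study, the 3 labelled Day 28 and the 3 labelled Day 5. The other 6 arrays, 3 of Day 2 (log phase growth) and 3 of Day 10 (differentiating cultures), entered the fit only to help estimate the spread and to place the changes in time. Cultures of every day, including the earliest, grew in the same medium with glycerol phosphate and ascorbic acid, replaced every 3 days. The days therefore differ in the age of the culture and not in treatment. All samples come from this 1 line. Each array held total RNA of the cells labelled with Cy3 beside a commercial mouse reference RNA (Stratagene) labelled with Cy5, with no dye swap. All values below are log2 ratios of cells over reference, with the median of every array set to 0. A difference is Day 28 minus Day 5 of such ratios. The labels do not state which channel is the numerator, and the direction is therefore likely rather than given. It was read from the genes themselves: 17 mesenchymal genes averaged 1.54 (SD 1.67) over the 12 arrays and 18 genes of other lineages averaged -0.92 (SD 1.79). The gap was 2.46 (permutation test over genes, two-sided, p = 2e-05, the smallest that 100000 resamples can give). Single genes were mixed, with 14 of the 17 and 9 of the 18 above 0.

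Osteoblasts arise from preosteoblasts that stop dividing, secrete and crosslink a collagen-rich matrix, and then mineralise it with the help of alkaline phosphatase and acidic phosphoproteins. Some become osteocytes embedded in that matrix, which they remodel with secreted proteases. Growth arrest comes before maturation in this sequence, and a contrast of mature with already arrested cultures addresses the later step.

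Of 17504 rows tested, 824 differed between the days at a limma adjusted p under 0.05 (4.71%). Of these, 490 rose (2.8%) and 334 fell (1.91%). The median difference over all rows was -0.0019, and 3051 rows (17.4%) had an unadjusted p under 0.05, 8.76% of all rows higher and 8.67% lower. With the ratio read as cells over reference, the rises were larger than the falls, and the reverse would hold with the ratio turned: the median rise was 0.96 and the median fall -0.75, 235 rises but 58 falls reached a log2 difference of 1, and 53 rises but 5 falls reached 2. The rises included 460 named genes and the falls 272. The largest fall of all, -3.65, belonged to a row with no gene assigned. Of 90 genes with several probes and at least 1 call, 26 had probes that differed in sign. The Day 28 arrays were the most alike, with mean correlations to their own day of 0.917 to 0.919, against 0.838 for Day 5 replicate 2 and 0.866 to 0.868 for the other Day 5 arrays. Day 10 replicate 3 stood lower still, at 0.795. With Day 5 replicate 2 left out, 573 rows passed (3.27%), 378 higher (2.16%) and 195 lower (1.11%). All 824 rows kept their direction, which carries little weight because the calls came largely from the arrays that stayed in. The lowest count, 404, came without Day 28 replicate 2. Nothing in the labels says that the replicates are separate cultures, and the p-values measure only the spread between these samples, which may be technical, and 3 arrays a day limit the precision.

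F13a1, the catalytic subunit of the transglutaminase factor XIII, which crosslinks proteins, showed the largest rise. Its log2 ratio was 0.53, 1.08 and 1.41 on the Day 5 arrays (replicates 1 to 3, in that order here and below) and 8.24, 8.77 and 8.60 on the Day 28 arrays. The days lay far apart, and the difference was 7.53 (SE 0.41), 185-fold, with a limma adjusted p of 1.14e-06. Mmp13, the collagenase of late osteoblasts and hypertrophic cartilage, stood second. Its ratios were 2.99, 2.55 and 3.43 on Day 5 and 8.00, 8.09 and 7.89 on Day 28. No Day 5 array came near a Day 28 array, and the rise was 5.01 (SE 0.34, limma adjusted p = 3.06e-06). Igf2, the growth factor that signals through the type 1 IGF receptor, read 0.01, -0.62 and -1.004 on Day 5 and 4.16, 4.06 and 3.97 on Day 28. It moved from at or below the level of the reference RNA to well above it, by 4.60 (SE 0.36, limma adjusted p = 8.67e-06). Dio2, the deiodinase that makes active thyroid hormone inside the cell, was -0.09, -0.04 and 0.69 on Day 5 and 3.97, 4.08 and 3.95 on Day 28. Its rise was 3.82 (SE 0.39, limma adjusted p = 9.66e-05). On Day 10 it read 0.41, -0.18 and 1.93, so replicates 1 and 2 were still near the Day 5 mean of 0.19 and replicate 3 was higher.

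The window around the transcription start of Mmp13 (RefSeq, GRCm38.p6, chr9:7272264-7272563, plus strand, 250 bases before to 50 after the start) is shown because the gene was the second largest rise. Capitals mark an AP-1 motif (TGANTCA, which reads the same on both strands) at -35 and the Runx core on the reverse strand (ACCACA for TGTGGT) at -118, both counted from the start site. Over both strands, 7.81% of 32851 mouse windows of this length hold the first motif and 16.8% the second.
Mmp13: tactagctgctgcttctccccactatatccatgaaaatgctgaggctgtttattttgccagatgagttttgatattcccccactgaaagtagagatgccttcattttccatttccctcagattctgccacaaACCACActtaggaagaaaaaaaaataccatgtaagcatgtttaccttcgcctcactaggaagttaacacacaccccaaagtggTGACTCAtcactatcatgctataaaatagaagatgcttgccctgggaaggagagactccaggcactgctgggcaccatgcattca

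Cd200, a membrane ligand for a receptor of myeloid cells, rose by 4.80. Clec3b (tetranectin, which binds plasminogen) rose by 4.76, and its Day 5 ratios of -0.40, -0.10 and -0.20 became 4.07, 4.96 and 4.55. Itgbl1 rose by 3.71, Fbln7 (a fibulin) by 3.56 and Col15a1 (a basement membrane collagen) by 3.09. Itgbl1 varied widely on Day 28, from 2.22 in replicate 1 to 5.17 in replicate 2 (SD 1.52), while Day 5 stayed between -0.05 and 0.48. Gpnmb, also known as osteoactivin, rose by 3.50 yet stayed below the reference, from -4.43 (SD 0.24) to -0.93 (SD 0.17). Apod, a secreted lipocalin, was already high on Day 5 at 5.00 (SD 0.35) and reached 8.14 (SD 0.12). Car9 (3.30) and Ccl8 (3.24) are described with their groups below. Virma, a subunit of the RNA methylation complex, rose by 3.36 on its single probe. One probe of Ighm, the heavy chain of immunoglobulin M, rose by 3.28, but the other Ighm probe differed by 0.25 (limma adjusted p = 0.558), so the probes of this gene disagreed.

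**Figure D1:**
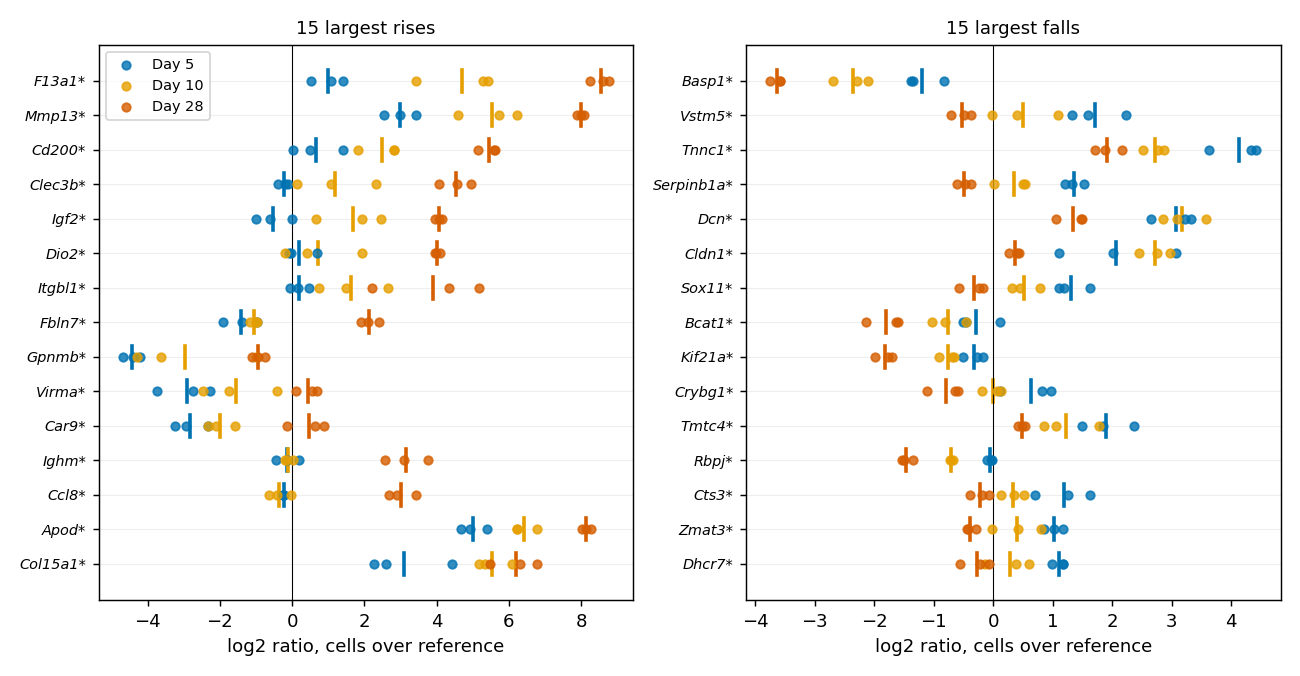
Log2 ratio of cells over reference (x axis) on each of the 3 arrays of Day 5, Day 10 and Day 28 for the 15 largest rises (left) and the 15 largest falls (right). Points are arrays, vertical bars are day means, and an asterisk marks a limma adjusted p under 0.05. F13a1 moved from a mean of 1.00 to 8.54 and Basp1 from -1.19 to -3.64. No Day 5 array overlapped a Day 28 array on the probes shown, which were chosen for their large differences. Of all rows, 25.3% did not overlap. Other probes of Ighm and Tmtc4, not shown, did overlap, as did the Sox11 probe at -0.48. The Sox11 probe at -1.02, also not shown, did not.

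The largest falls among named genes were smaller. Basp1, a protein of the inner face of the plasma membrane, read -1.39, -0.83 and -1.35 on Day 5 and -3.58, -3.75 and -3.58 on Day 28. All Day 28 arrays were lower, and the fall was -2.45 (SE 0.22, limma adjusted p = 2.89e-05). Tnnc1, the troponin C of slow and cardiac muscle, was 4.42, 3.62 and 4.33 on Day 5 and 1.72, 1.88 and 2.16 on Day 28. It stayed above the reference on both days while it fell by 2.21 on the log2 scale (SE 0.21, limma adjusted p = 5.01e-05). Dcn, the small proteoglycan decorin that binds collagen fibrils, was 2.65, 3.22 and 3.32 on Day 5 and 1.06, 1.49 and 1.48 on Day 28, a difference of -1.72 (SE 0.21, limma adjusted p = 0.000414). Its Day 10 mean of 3.17 still matched Day 5 at 3.06, so the fall came after Day 10. Vstm5 fell by 2.24, Serpinb1a (an inhibitor of serine proteases of neutrophils) by 1.84 and Rbpj, the DNA-binding effector of Notch signalling, by 1.41. Sox11, a transcription factor of progenitor cells, fell by 1.64 on one probe and by 1.02 on a second, and another probe differed by -0.48 (limma adjusted p = 0.773) with Day 28 replicate 3 at 2.98 there. Cldn1, a tight junction protein, fell by 1.70, with Day 5 arrays spread from 1.10 in replicate 2 to 3.07 in replicate 3. It was the only one of the 30 leading genes whose call was lost when single arrays were left out (Day 5 replicate 1 or any Day 28 array). The other leading falls were Kif21a (-1.51), Crybg1 (-1.42), Tmtc4 (-1.42, with a second probe at -0.45, limma adjusted p = 0.2), Cts3 (-1.41) and Zmat3 (-1.40). Bcat1 and Dhcr7 belong to groups described below.

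Some collagens of the structural matrix rose. Of 23 collagen genes measured, 6 rose and none fell (median difference 0.39, against -0.0019 over all rows). Over all rows, 2.8% rose and 1.91% fell. Besides Col15a1, these were Col18a1, its relative in basement membranes (2.39), Col11a1 and Col5a3, which take part in nucleating and sizing fibrils (1.53 and 1.43), Col24a1 (0.76) and Col16a1 (0.63). Col18a1 was -1.60, -1.39 and -2.06 on Day 5 and 0.70, 0.70 and 0.72 on Day 28, with no overlap (limma adjusted p = 2.65e-06). The chains of type I collagen, the bulk protein of bone, did not pass. Col1a1 was 3.12, 2.65 and 2.13 on Day 5 and 2.87, 2.58 and 2.62 on Day 28, a difference of 0.06 with a 95% interval from -0.47 to 0.58. Col1a2 was 3.17, 3.00 and 3.05 and then 3.54, 3.32 and 3.51, a difference of 0.39 (limma adjusted p = 0.443). The Col1a1 arrays of the days overlapped and those of Col1a2 did not, a separation that 12.8% of all rows showed in the upward direction. Without Day 5 replicate 2, 5 collagens rose, all of these but Col24a1. Under quantile normalization of the arrays 3 rose and the median was 0.13. In these bulk samples, fewer cells of a type and less RNA per cell cannot be told apart.

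Of 18 enzymes that modify collagen, 4 rose and none fell (median 0.29), where 2.8% of all rows rose and 1.91% fell. Plod1 and Plod2, which hydroxylate lysine in collagen, rose by 1.20 and 0.70, Ppib, which isomerises proline in procollagen, by 0.84, and Lox, which starts the crosslinks, by 0.61. A second Plod1 probe differed by 0.29 (limma adjusted p = 0.342). Plod2 and Lox did not pass without Day 5 replicate 2 (limma adjusted p = 0.0658 and 0.125). Small leucine-rich proteoglycans split: Fmod (fibromodulin) rose by 2.35 and Omd (osteoadherin) by 1.51 while Dcn fell, and the other 7 did not pass. Fmod and Omd did not pass under quantile normalization.

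Proteins of elastic fibres and microfibrils rose in 7 of 17 cases and fell in 1 (median 0.38), against 2.8% and 1.91% of all rows. Mfap5, which binds fibrillin microfibrils, read 0.20, 0.65 and 0.72 on Day 5 and 2.83, 2.79 and 2.77 on Day 28, a rise of 2.27 (limma adjusted p = 2.7e-06). Its Day 28 arrays agree closely, with an SD of 0.03. Fbln2 (1.35), Ltbp2 (1.07), Matn2 (0.95), Mfap4 (0.91) and Ltbp4 (0.59) rose as well as Fbln7, whereas Fbln5, which guides elastic fibre assembly, fell by 1.07. Fbln2, Mfap4 and Ltbp4 did not pass without Day 5 replicate 2, so 4 of the 7 rises passed there. Under quantile normalization 5 rose and the median was 0.13. Among 19 matricellular proteins, which signal to cells rather than build the matrix, 4 rose and 1 fell (median -0.06). The rises were Smoc2 (2.18), Ecm1 (1.45), Ccn5, the growth-restraining member of its family (1.37), and Tnc (1.10), and the fall was Thbs3 (-0.91). Tnc and Thbs3 did not pass without Day 5 replicate 2 (limma adjusted p = 0.0977 and 0.125).

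Matrix proteases and their inhibitors rose in 8 of 26 cases and fell in none (median 0.10), where 2.8% of all rows rose and 1.91% fell. Beside Mmp13 these were Htra1, a secreted serine protease (1.70), Plat, the tissue plasminogen activator (1.41), Adam12 (1.19), Mmp19 (0.92) and Mmp11 (0.84), and the inhibitors Timp1 (1.04) and Serpinf1, the anti-angiogenic factor whose loss causes brittle bones in people (1.08). Timp1 inhibits collagenases such as Mmp13. Without Day 5 replicate 2, 6 rose, and Mmp19 and Mmp11 did not pass. Lysosomal genes rose in 8 of 25 cases and fell in 1 (median 0.35, with 21 of 25 above 0). Ctsk, the cathepsin that cleaves collagen, was 3.83, 2.58 and 3.58 on Day 5 and 4.97, 5.63 and 5.05 on Day 28. Day 5 replicate 2 was the low array, and the rise of 1.88 (limma adjusted p = 0.0265) became 1.51 without it (limma adjusted p = 0.103). Hexa, which trims gangliosides, rose evenly from 0.51, 0.44 and 0.63 to 1.54, 1.67 and 1.78, by 1.13 (limma adjusted p = 0.00108). Ctsh (1.36), Ctsd (1.06), Ctsl (1.06), Ctsa (0.85), Psap (0.81) and Neu1 (0.74) rose too, and the acid ceramidase gene Asah1 fell by 0.66. Without Day 5 replicate 2, 4 lysosomal genes rose and none fell: Ctsh, Hexa, Ctsd and Ctsl.

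Of 15 measured genes that define the osteoblast lineage, 3 rose and 1 fell, where 4.71% of all rows passed. Their median difference was 0.39, 0.21 without Day 5 replicate 2 and 0.18 under quantile normalization. Sparc, the collagen-binding osteonectin, rose by 1.48 (SE 0.25, limma adjusted p = 0.00338) from 1.72, 0.93 and 0.89 to 2.52, 2.68 and 2.78. Ank, which exports pyrophosphate, rose by 0.83, and Tnfrsf11b (osteoprotegerin, the decoy receptor that restrains osteoclasts) by 0.82. Neither Ank nor Tnfrsf11b passed without Day 5 replicate 2 (limma adjusted p = 0.0512 and 0.0665). Msx2, a homeobox factor of immature osteoblasts, fell by 1.07, and by 1.42 without that array, in which it stood at 1.21 beside 2.31 and 2.19. Pth1r lay just outside the threshold, at 1.92, 0.55 and 0.82 on Day 5 and 2.47, 2.57 and 2.44 on Day 28. Its difference was 1.40 (limma adjusted p = 0.0524), and 1.12 without Day 5 replicate 2. In the group, 5 genes had all Day 28 arrays above all Day 5 arrays and 2 all below, against 12.8% and 12.5% of all rows. Alkaline phosphatase (Alpl) was 1.65, 1.58 and 0.27 on Day 5 and 1.46, 1.87 and 1.83 on Day 28. The days overlapped, Day 5 replicate 3 being the 1 low array, and the difference was 0.55 (95% interval -0.38 to 1.48). Ibsp, the bone sialoprotein, differed by 0.54 (interval -0.97 to 2.05), and Sp7, the osteoblast transcription factor osterix, by -0.09 (interval -1.03 to 0.86). Runx2, Bglap and Spp1 were not analysed here.

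Of 13 osteocyte and phosphate genes, 1 rose and 1 fell (median 0.07), against 2.8% and 1.91% of all rows. Dmp1, the acidic phosphoprotein of early osteocytes, was 0.36, -0.02 and 0.93 on Day 5 and 2.51, 1.98 and 3.02 on Day 28. Every Day 28 array was above every Day 5 array, by 2.08 on average (SE 0.28, limma adjusted p = 0.000732), and by 1.86 without Day 5 replicate 2. Cd44, a hyaluronan receptor, fell by 0.92. Phex, the endopeptidase mutated in X-linked hypophosphatemia, differed by 0.37 (limma adjusted p = 0.38), with its Day 28 replicate 2 inside the Day 5 range.

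Of 16 genes of insulin-like growth factor signalling, 6 rose and none fell (median 0.44), where 2.8% of all rows rose and 1.91% fell. Under quantile normalization 4 rose. The ligands Igf2 (above) and Igf1 rose together. Igf1 was 3.22, 2.08 and 2.64 on Day 5 and 4.04, 4.54 and 4.08 on Day 28, a rise of 1.58 (limma adjusted p = 0.0373) that became 1.29 without Day 5 replicate 2, its lowest array (limma adjusted p = 0.13). The binding proteins, which carry and restrain the ligands, rose as well: Igfbp4 by 2.33, Igfbp5 by 2.13 and Igfbp6 by 1.22. Igfbp5 read 2.51, 2.10 and 1.99 on Day 5 and 4.08, 4.58 and 4.31 on Day 28 (limma adjusted p = 0.000215). Igfbp4 did not pass without Day 5 replicate 2 (limma adjusted p = 0.109). Htra1, counted also among the proteases, is a protease that cleaves binding proteins of this axis.

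Signals of the BMP and TGF-beta families rose in 4 of 39 cases and fell in none (median 0.20, and 0.12 under quantile normalization). Over all rows, 2.8% rose and 1.91% fell. Tgfb1, the ligand stored in bone matrix, was -0.51, -1.22 and -0.98 on Day 5 and 0.92, 0.76 and 0.90 on Day 28, and rose by 1.76 (SE 0.26, limma adjusted p = 0.00141). The antagonists Grem1 and Chrdl1, which bind BMPs outside the cell, rose by 1.94 and 1.59, and the receptor Acvr1 by 0.79. A second probe of Chrdl1 differed by 0.89 (limma adjusted p = 0.281). All 4 also passed without Day 5 replicate 2, but Acvr1 did not without Day 28 replicate 3. In the Wnt pathway, 4 of 40 rose and none fell (median 0.01): the secreted modulators Sfrp2 (1.05) and Dkk2 (0.82), the receptor Fzd8 (0.86) and Ccn5, a known Wnt target that is also in the matricellular group. Dkk2 and Fzd8 did not pass without Day 5 replicate 2, and under quantile normalization 2 rose and 1 fell.

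Secreted immune mediators rose in part. Of 39 chemokines and cytokines, 5 rose and 1 fell (median -0.02), against 2.8% and 1.91% of all rows. Ccl8, an attractant of monocytes, was flat on Day 5 at -0.22, -0.25 and -0.24 and read 2.91, 3.43 and 2.67 on Day 28 (difference 3.24, limma adjusted p = 1.64e-06). Il33, an alarmin of the interleukin 1 family, rose by 2.99 from -2.54, -1.64 and -2.14 to 0.90, 0.97 and 0.80. Ccl7 (1.84), Il34, a ligand of the receptor Csf1r (0.95), and Ccl5 (0.83) rose also, and Cxcl12, which retains haematopoietic cells in the marrow, fell by 0.70. Cxcl12 did not pass without Day 5 replicate 2 (limma adjusted p = 0.0731). Of 18 complement and acute phase genes, 3 rose and none fell (median 0.06): Cp, ceruloplasmin (1.43), C1ra (1.37) and C1s1 (0.91), the proteases of the first complement component. C1s1 did not pass without Day 5 replicate 2, and lay just inside the threshold (limma adjusted p = 0.0496), as did Foxp1 (-0.65), and Mettl15 (0.70, limma adjusted p = 0.0505) lay just outside it. Of 30 interferon response genes, 5 fell and 1 rose (median -0.06). Rtp4 (-1.10), Isg15 (-0.84), Stat2 (-0.81), Ifitm3 (-0.57) and Mx1 (-0.56) fell, and B2m, the light chain of class I histocompatibility molecules, rose by 0.88. Without Day 5 replicate 2, Rtp4 and Isg15 were the falls that passed.

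Several genes of glycolysis rose. Of 17 measured, 5 rose and none fell, where 2.8% of all rows rose and 1.91% fell. The median difference of 0.63 was the highest of the 39 gene groups examined. The median over the group was -2.20, -2.24 and -1.55 on the Day 5 arrays and -0.78, -1.49 and -0.55 on the Day 28 arrays. The days did not overlap, but Day 5 replicate 3 and Day 28 replicate 2 came close, and all 6 medians stayed below the reference. Pgk1, which makes the first ATP of the pathway, was -3.29, -3.06 and -3.08 on Day 5 and -0.78, -1.54 and -0.55 on Day 28. It rose by 2.19 (SE 0.35, limma adjusted p = 0.00269). Pfkl, a subunit of the rate-controlling phosphofructokinase, rose by 1.80 on one probe and differed by 0.10 on another (limma adjusted p = 0.873). Of the other enzymes, Pkm (pyruvate kinase) rose by 1.17, Ldha (lactate dehydrogenase) by 1.03 and Tpi1 by 0.82. Ldha did not pass without Day 5 replicate 2 (limma adjusted p = 0.108). Genes known to respond to low oxygen rose in 4 of 22 cases and fell in none (median 0.46). Car9, a carbonic anhydrase and classical target of hypoxia-inducible factors, was -3.23, -2.33 and -2.94 on Day 5 and 0.65, -0.13 and 0.89 on Day 28, a difference of 3.30 (SE 0.36, limma adjusted p = 0.000161). Higd1a, a mitochondrial protein, rose by 2.00, Bnip3, which marks mitochondria for removal, by 1.76, and Egln3, an oxygen-sensing hydroxylase, by 0.85. All 4 passed without Day 5 replicate 2 as well, but Egln3 did not without Day 5 replicate 1 or 3 or Day 28 replicate 1 or 3.

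Start-site windows of Pgk1 (RefSeq, GRCm38.p6, chrX:106186850-106187149, plus strand) and Car9 (chr4:43506776-43507075, plus strand) are shown as the largest rises of the glycolysis and low-oxygen groups. Capitals mark the core of the hypoxia response element, ACGTG, or its reverse complement CACGT. The motif was present in 7 of 11 windows of the 9 genes of these groups that rose (63.6%), in 23 of 35 windows of those that did not pass (65.7%), and in 19.6% of all windows.
Pgk1: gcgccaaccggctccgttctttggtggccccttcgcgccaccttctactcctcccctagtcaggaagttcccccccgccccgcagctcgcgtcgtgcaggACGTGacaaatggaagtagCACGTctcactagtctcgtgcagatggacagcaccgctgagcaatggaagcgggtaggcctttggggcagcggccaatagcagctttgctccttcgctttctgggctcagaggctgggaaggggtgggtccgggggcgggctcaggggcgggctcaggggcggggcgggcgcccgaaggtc
Car9: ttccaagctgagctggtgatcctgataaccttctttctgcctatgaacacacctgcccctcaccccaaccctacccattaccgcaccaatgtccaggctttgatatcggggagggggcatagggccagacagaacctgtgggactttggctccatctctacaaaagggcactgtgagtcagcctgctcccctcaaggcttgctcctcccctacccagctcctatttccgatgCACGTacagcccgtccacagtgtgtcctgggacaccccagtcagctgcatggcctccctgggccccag

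Cholesterol synthesis had the lowest median of the 39 groups. Of 17 genes measured, 9 fell and none rose (median -0.84), where 1.91% of all rows fell and 2.8% rose. In 14 of the 17, all Day 28 arrays were below all Day 5 arrays, which 12.5% of all rows showed. The median over the group was 1.18, 1.17 and 0.98 on Day 5 and 0.08, 0.17 and 0.02 on Day 28. The group moved from about 1 log2 unit above the reference to its level. The falls covered the pathway from its isoprenoid part to its last step: Mvd (-0.84), Idi1 (-1.23) and Fdps (-1.24) make the isoprenoid units, Fdft1 (-0.77) and Sqle (-0.997) commit them to sterols, and Cyp51 (-1.04), Msmo1 (-1.25), Nsdhl (-0.92) and Dhcr7 (-1.39) convert lanosterol to cholesterol. Dhcr7 was 1.18, 1.18 and 0.98 on Day 5 and -0.06, -0.21 and -0.55 on Day 28 (limma adjusted p = 0.000706). Msmo1 was 1.49, 1.52 and 1.03 and then 0.12, 0.17 and -0.02 (limma adjusted p = 0.000354), and Fdps was 1.50, 1.31 and 1.11 and then 0.08, 0.17 and -0.04 (limma adjusted p = 0.000607). In these 3 genes the Day 28 arrays lay close to the reference and every Day 5 array lay well above it. Without Day 5 replicate 2, 6 fell, and Cyp51, Mvd and Fdft1 did not pass (limma adjusted p = 0.0652, 0.0511 and 0.0873). Without Day 10 replicate 3, 12 fell. In the neighbouring fatty acid group of 19 genes, Acly, which supplies cytosolic acetyl-CoA, fell by 0.95 and Fads1, a desaturase, by 0.70, while Srebf1, a regulator of lipid synthesis, rose by 0.74. Fads1 did not pass without Day 5 replicate 2 (limma adjusted p = 0.0807).

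Windows of Idi1 (RefSeq, GRCm38.p6, chr13:8885356-8885655, plus strand) and Msmo1 (chr8:64733529-64733828, minus strand) are shown for this group because CCAAT boxes recur in it. Capitals mark CCAAT or its reverse complement ATTGG. The box was found in 6 of 8 windows of the fallen genes (75%, at least 1 in each of the 6 genes with a window), in all 7 windows of the genes that did not pass, and in 37.4% of all windows. A strict sterol element (TCACNCCAC, both strands) was in none of these windows and in 1.24% of all.
Idi1: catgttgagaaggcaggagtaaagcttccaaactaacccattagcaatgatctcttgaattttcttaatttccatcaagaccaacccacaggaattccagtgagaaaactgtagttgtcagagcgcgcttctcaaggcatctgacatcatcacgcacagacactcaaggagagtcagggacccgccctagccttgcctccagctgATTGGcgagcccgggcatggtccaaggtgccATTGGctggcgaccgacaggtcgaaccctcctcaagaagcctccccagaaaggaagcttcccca
Msmo1: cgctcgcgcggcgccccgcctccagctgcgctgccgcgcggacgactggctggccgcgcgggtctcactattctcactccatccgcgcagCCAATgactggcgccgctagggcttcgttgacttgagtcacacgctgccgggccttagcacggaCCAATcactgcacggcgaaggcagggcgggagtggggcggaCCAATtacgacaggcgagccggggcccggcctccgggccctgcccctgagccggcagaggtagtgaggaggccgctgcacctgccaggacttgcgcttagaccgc

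**Figure D2:**
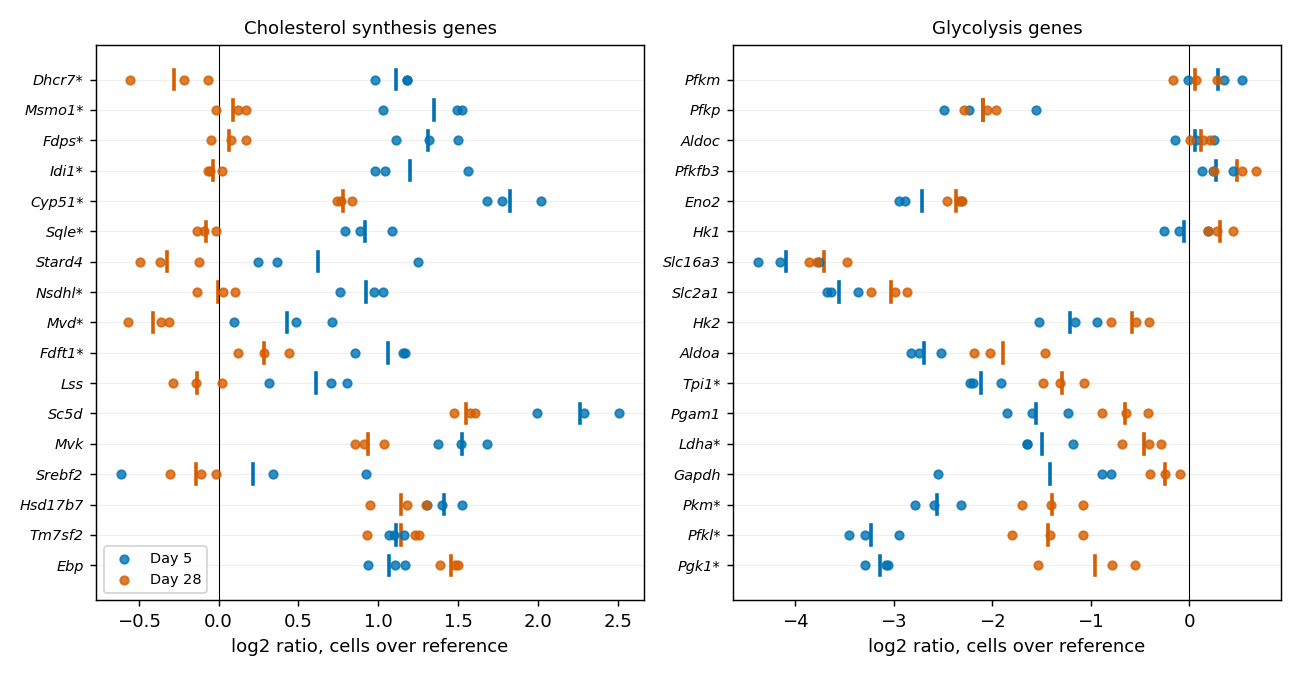
Log2 ratio of cells over reference (x axis) on each Day 5 and Day 28 array for the measured genes of cholesterol synthesis (left) and glycolysis (right), ordered by difference. Vertical bars are day means and an asterisk marks a limma adjusted p under 0.05. On the left most Day 28 points lie at lower ratios than Day 5, with group medians of 0.02 to 0.17 against 0.98 to 1.18, and on the right most lie at higher ones.

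Some genes of protein synthesis fell. Of 58 cytosolic ribosomal protein genes, 7 fell and none rose (median -0.12): Rps18 (-1.14), Rpl8 (-0.99), Rps12 (-0.92), Rps7 (-0.89), Rps3a1 (-0.78), Rpl29 (-0.64) and Rpl13a (-0.50). Rps7 was -0.58, -0.39 and -0.46 on Day 5 and -1.50, -1.16 and -1.43 on Day 28, with no overlap. These genes have many processed copies in the genome, and which copies a probe reads is uncertain. Without Day 5 replicate 2, Rpl8, Rps12, Rps7 and Rps3a1 passed and the other 3 did not. Serine synthesis and amino acid supply had 3 falls and no rise among 26 genes (median -0.31). Psat1, of the serine pathway, was -0.48, -0.63 and -0.52 on Day 5 and -1.82, -1.92 and -2.04 on Day 28, a fall of 1.38 (SE 0.16, limma adjusted p = 0.000241). Bcat1, which transfers the amino group of branched-chain amino acids, fell by 1.51, and Phgdh, the first enzyme of serine synthesis, by 0.60. By limma, none of 16 aminoacyl-tRNA synthetases passed (median -0.32), and 0 higher and 4 lower had an unadjusted p under 0.05. Iars had the smallest p among them, with a difference of -1.01 (limma adjusted p = 0.0643), followed by Cars at -0.79 (limma adjusted p = 0.16). None of 65 mitochondrial ribosomal proteins passed by limma (median 0.04), and 7 higher and 4 lower had an unadjusted p under 0.05, led by Mrpl51 at -0.50 and Mrps18b at -0.65. Of all rows, 8.76% were higher and 8.67% lower at that unadjusted level, and 4.71% passed the adjusted threshold. Among 61 oxidative phosphorylation genes, Ndufb3 rose by 0.55, Atp5b fell by 0.75 and Ndufa4 fell by 1.07 (median 0.05), a share near that of all rows. At an unadjusted limma p under 0.05, 12 of these genes were higher and 3 lower. Of 27 genes of folding and secretion in the endoplasmic reticulum, Dnajb9 rose by 0.57, and Hsp90b1 (-0.54) and Ssr1 (-0.45) did not pass. Phgdh, Ndufa4 and Dnajb9 did not pass without Day 5 replicate 2 (limma adjusted p = 0.1245, 0.119 and 0.121). Ndufb3 did not pass without Day 5 replicate 1 or 3 or without any 1 Day 28 array.

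By limma, none of 44 mitosis genes and none of 46 DNA replication genes passed, with medians of -0.08 and 0.00, where 4.71% of all rows passed. At an unadjusted p under 0.05, 1 mitosis gene was higher and 1 lower, and 1 replication gene was higher and 2 lower. Of all rows, 8.76% were higher and 8.67% lower at that level. The mitosis median was -1.18, -0.80 and -0.67 on the Day 5 arrays and -1.04, -1.09 and -1.10 on the Day 28 arrays, so the Day 28 arrays lay inside the Day 5 range. The 95% intervals of single mitosis genes reached from -1.44 to 1.36, and those of replication genes from -1.09 to 2.15. Mki67, the proliferation marker, was -2.21, -1.43 and -1.92 on Day 5 and -2.16, -2.40 and -2.12 on Day 28, a difference of -0.38 (limma adjusted p = 0.612). Aurka (0.43) and Cdc25c (-0.43) had the smallest p among mitosis genes, and Orc6 (-0.36) and Rnaseh2a (0.62) among replication genes. None of 13 G1 cyclins and kinases passed by limma (1 higher and 2 lower at an unadjusted p under 0.05), with Skp2 at -0.61 and Ccnd3 at 0.46 nearest, and Ccnd1 differed by -0.19 (interval -0.66 to 0.28). Of 27 inhibitors and arrest genes, Gas6, a ligand of the Axl receptor found in arrested fibroblasts, rose by 0.77, Gadd45g rose by 0.72 and Ccng1, a p53 target, fell by 0.59. The rise of Gas6 turned to -0.01 under quantile normalization, and did not pass without Day 5 replicate 2 (limma adjusted p = 0.0575). Cdkn1a, the inhibitor p21, was 0.10, -0.21 and 0.10 on Day 5 and -0.99, -1.39 and -0.87 on Day 28. Its arrays did not overlap, but the difference of -1.08 did not pass (SE 0.35, limma adjusted p = 0.106), and its Day 10 arrays had an SD of 0.99.

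Attachment and stress genes changed in both directions, as did all rows, of which 2.8% rose and 1.91% fell. Of 21 integrin and focal adhesion genes, Tns1 (1.85) and Itga8 (1.77) rose, and Itga6 (-0.85), Ilk (-0.68) and Itga5 (-0.51), the fibronectin receptor subunit, fell. Itga5 did not pass without Day 5 replicate 2 (limma adjusted p = 0.138). None of 24 contractile genes passed by limma, with Flna at -0.70 (limma adjusted p = 0.0614) and Myl6 at -0.49 nearest. At an unadjusted p under 0.05, 3 were higher and 6 lower, against 8.76% and 8.67% of all rows. Among 23 immediate early genes, Fosl2, an AP-1 subunit, rose by 1.47, Dusp1 by 0.86 and Klf2 by 0.68, and Klf4 fell by 0.91. Neither Klf2 nor Klf4 passed without Day 5 replicate 2 (limma adjusted p = 0.0653 and 0.0986). Dusp1 did not pass without Day 5 replicate 1 or 3 or without any 1 Day 28 array. Of 32 antioxidant genes (median 0.20, and 0.13 under quantile normalization), Gstm5 (1.68) and Sod3, the extracellular superoxide dismutase (1.53), rose and none fell. Under quantile normalization Sod3 did not pass, and 1 gene of the group rose and 1 fell.

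Of 84 markers of 6 other cell types, 5 rose and 3 fell (9.52%, against 4.71% of all rows). Of 17 macrophage and osteoclast markers, Ctsk alone rose, and it is counted among the lysosomal genes above. Fcer1g differed by -0.59 (limma adjusted p = 0.0545) and Cd14 by 0.59 (limma adjusted p = 0.158), and the median of the group was -0.01. Of 11 lymphocyte markers, the Ighm probe described above rose, while Cd2 (-0.33) and Cd3d (-0.35) did not pass. Among 11 endothelial markers, Flt1 rose by 0.78 and Cd34, also a marker of stromal progenitors, fell by 0.91. Flt1 did not pass without Day 5 replicate 2 (limma adjusted p = 0.0683). Cnmd, the cartilage factor chondromodulin, rose by 1.48 as the one of 16 chondrocyte markers, and Col9a3 (0.44) and Snorc (0.22) did not pass. Tnnt1 rose by 1.04 and Tnnc1 fell among 20 skeletal muscle markers. Of 9 adipocyte markers, Adipoq fell by 0.49 (limma adjusted p = 0.0731 without Day 5 replicate 2), and Cebpa (0.39) and Slc2a4 (-0.26) did not pass. The part of other cell types in the immune and lysosomal changes was not tested.

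**Figure D3:**
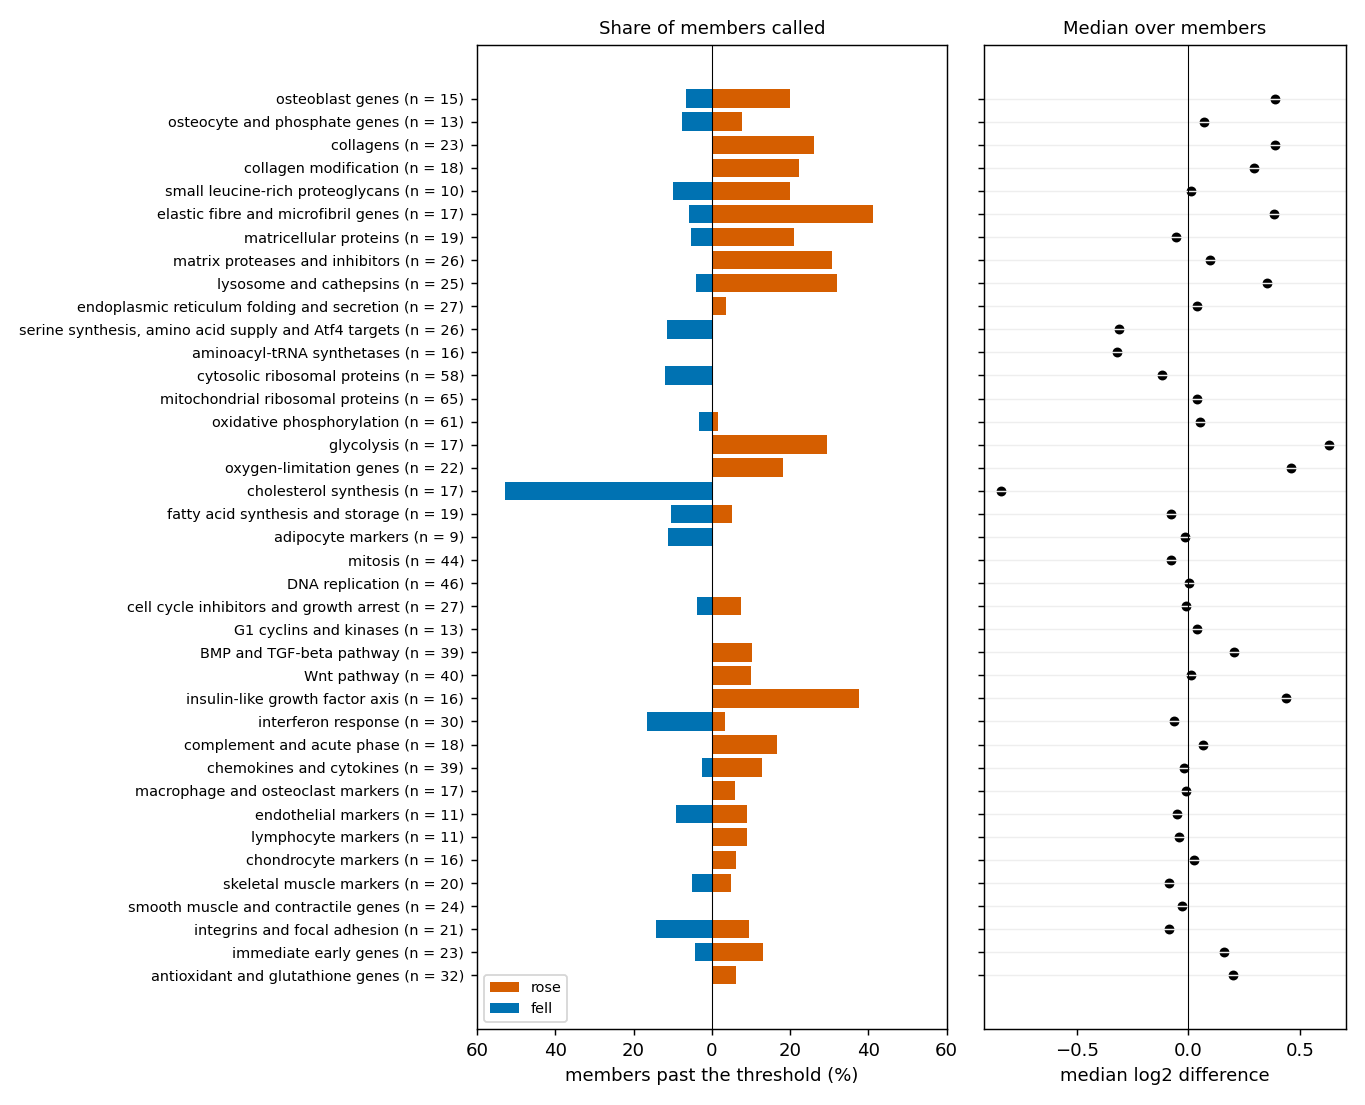
For each of 39 gene groups, the share of measured members past a limma adjusted p of 0.05 (left panel, percent, falls to the left of 0 and rises to the right) and the median log2 difference, Day 28 minus Day 5 (right panel). The number of measured members stands beside each name. Over all rows, 2.8% rose and 1.91% fell. Cholesterol synthesis has the lowest median at -0.84 and glycolysis the highest at 0.63.

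The Day 10 arrays give a rough timing of these changes. Of the 490 rows that rose, 456 had a Day 10 mean between those of Day 5 and Day 28, and of the 334 that fell, 314 did. The rows were chosen for a gap between Day 5 and Day 28, which by itself favours a Day 10 mean in between. The share over all rows was not computed, and the choice also bears on the shares below. The median share of the change reached by Day 10 was 41.2% for rises and 49.6% for falls. More of the change came after Day 10 in 308 of the rises and 171 of the falls. Without Day 10 replicate 3 the median shares were 43.6% and 49.3%. The Day 2 mean was nearer to Day 28 than the Day 5 mean was in 260 of the rises and 258 of the falls. Tnnc1 was among these, with means of 2.37 on Day 2, 4.12 on Day 5 and 1.92 on Day 28. Choosing rows whose Day 5 mean lies far from Day 28 favours such counts, and the share over all rows was not computed. A return toward the Day 2 level therefore cannot be read from the counts. Single genes differed in their timing: the Day 10 mean of Fbln7 was -1.04 against -1.43 on Day 5 and 2.13 on Day 28, and that of Ccl8 was -0.37 against -0.24 and 3.00. For F13a1 it was 4.71, about midway between 1.00 and 8.54, and for Col15a1 it was 5.53, near the Day 28 mean of 6.19. The collagen median reached 1.74 and 1.70 in Day 10 replicates 1 and 2, the Day 28 range being 1.70 to 1.76, but stayed at 1.15 in replicate 3. The glycolysis median remained at -1.83, -1.80 and -1.72 on Day 10, inside the Day 5 range. Day 5 and Day 28 are each used in more than one of these steps, so the steps share arrays and are not independent.

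**Figure D4:**
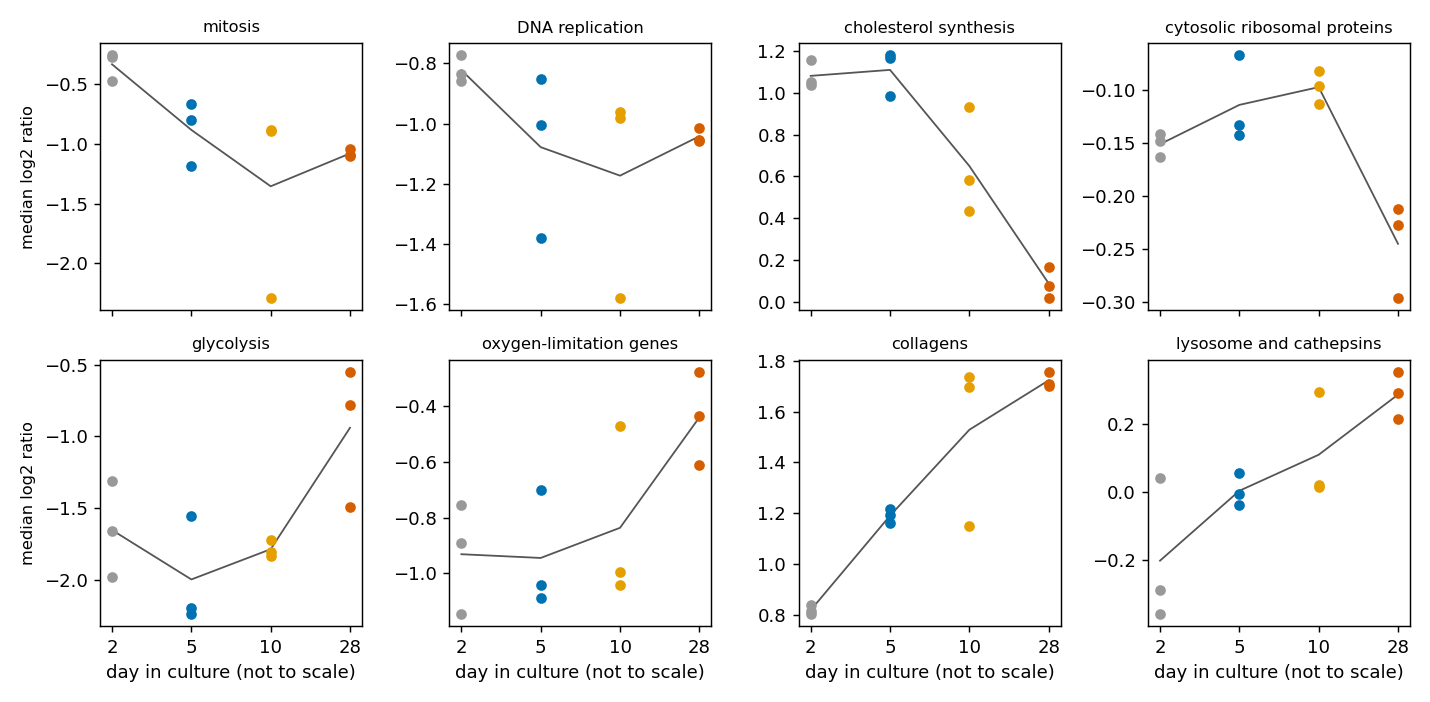
Median log2 ratio over the measured members of 8 gene groups (y axis, a scale of its own in each panel) on every array, by day in culture (x axis, not to scale). Points are arrays and the line joins the means of each day's points. The mitosis medians of Day 5 (-1.18 to -0.67) and Day 28 (-1.10 to -1.04) overlap, whereas those of cholesterol synthesis, glycolysis, collagens and cytosolic ribosomal proteins do not.

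Leaving out Day 5 replicate 2 reduced the number of calls in the fit that held all 4 days, but not in the fit of Day 5 and Day 28 alone. No called row changed direction, but the shared arrays made that likely in advance, and it held for each other Day 5 array too. Of the 490 rises, 350 passed again, and of the 334 falls, 159 did, with 28 and 36 further rows gained. The median size was 0.96 with and without it for rises, and went from -0.75 to -0.73 for falls. Removing either of the other Day 5 arrays had a similar cost: 542 rows passed without replicate 1 (344 higher and 198 lower) and 629 without replicate 3 (392 and 237). The counts were lower without single Day 28 arrays: 452 rows passed without replicate 1, 404 without replicate 2 and 450 without replicate 3. Without Day 10 replicate 3, 1126 rows passed (6.43%), 650 higher (3.71%) and 476 lower (2.72%). Once both arrays that correlated least with their own day were out, 1028 rows did (5.87%), 578 higher (3.3%) and 450 lower (2.57%). With only the 6 arrays of both days 833 rows passed (521 higher and 312 lower). Once Day 5 replicate 2 was taken from those 6, the count was larger, at 893 (514 higher and 379 lower). A test against a log2 difference of 0.5 in place of 0 (limma's treat) left 133 rows (0.76%), 113 higher (0.646%) and 20 lower (0.114%). Of the 151 named genes that passed, 108 also passed without Day 5 replicate 2, and 136 with both of those arrays out. All of the 30 leading genes passed in the former. Among the called genes given array by array here, Ctsk and Igf1 were those that did not.

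**Figure D5:**
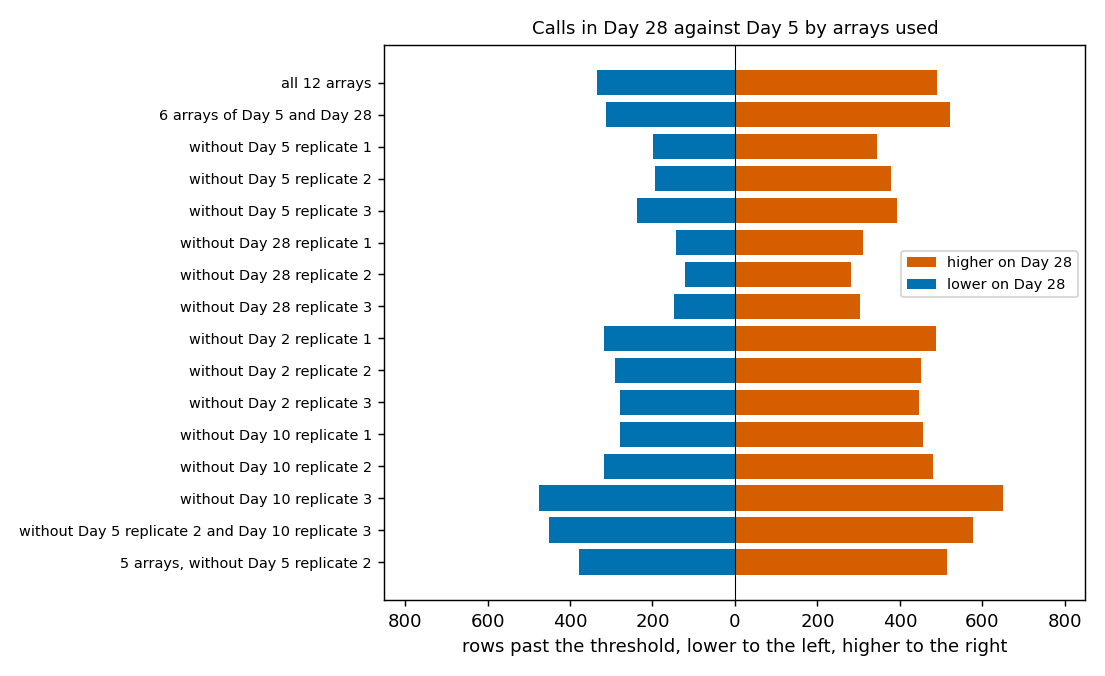
Rows past a limma adjusted p of 0.05 in Day 28 against Day 5 (x axis, lower on Day 28 to the left of 0 and higher to the right) for each choice of arrays (y axis). With all 12 arrays 490 rows were higher and 334 lower. Taking out Day 5 replicate 2 gave 378 higher and 195 lower rows, and taking out Day 10 replicate 3 gave 650 higher and 476 lower ones.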

How the data were processed

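Two-colour arrays printed with an oligonucleotide set for mouse genes were analysed from the values deposited for each array. The authors deposited log2 ratios, taken as base 2 and as cells over reference although the labels state neither; R 2.13.0 is named in the submitters' processing notes, and how background was corrected and arrays were normalized is not given in the sources. Background and saturation of single spots were not analysed here. Of 17664 rows, 170 spots of 10 genes printed 17 times were averaged to 1 row each, leaving 17504, with no filter on low values. Column medians lay within 0.0132 of 0, and each array was centred on its median. Names came from the platform annotation, updated through RefSeq (GRCm38.p6): 14010 rows had 1 gene, 13 several and 3641 none, and 13908 matched. The days were fitted with limma 3.58.1 in R 4.3.3 (lmFit and eBayes) with 1 mean for each day over 12 arrays (8 residual degrees of freedom), and Benjamini-Hochberg adjustment ran over all 17504 rows with a threshold of 0.05. The fit was also run on simulated data, whose outcome is not given here. The genes named are the 15 largest rises and 15 largest falls, the members of 39 gene groups past the threshold (or, where a group had fewer than 2, those of the smallest p), and the genes that define the stages. In a group, a gene counts by its lowest-numbered probe. The comparison, members and groups were chosen with earlier results of these data known. Samples were grouped by the day in the labels. Other normalizations, weights, row sets and array choices were tried as alternatives.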

Additional observations from a re-analysis of the deposited data

How the results depend on the processing

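With all 12 arrays, 824 rows passed (490 higher and 334 lower). Leaving out 1 array at a time moved the total between 404 and 1126, the higher rows between 282 and 650 and the lower rows between 122 and 476. The lowest counts came without Day 28 replicate 2 and the highest without Day 10 replicate 3. The total was lower by over 1.5 times without any 1 Day 28 array (452, 404 and 450) and without Day 5 replicate 1 (542), and the lower rows also without Day 5 replicate 2 (195). Testing against a log2 difference of 0.5 in place of 0 (limma's treat) left 133 rows, 113 higher and 20 lower, so 85.0% were higher, against 59.5% at 0; with the ratio turned these would be the shares that were lower. The labels do not say whether the replicate numbers pair the samples. Deviations of same-numbered Day 5 and Day 28 arrays correlated at -0.017, 0.017 and 0.028, and those of differently numbered arrays at -0.066 to 0.050. No shared effect of the number was seen, but this check cannot exclude pairing. With the number as a replicate block, 683 rows passed, 423 higher and 260 lower. Quantile normalization gave 709 (377 higher and 332 lower), equal spread of the arrays 751, no centring 826, array weights 1161, a robust prior 843 and rows with 1 gene 797. Of the 151 named genes that passed, 88 passed without each of the 12 arrays and 49 under every alternative, and 1, Gas6, reversed, to -0.0147 under quantile normalization; the cause was not tested. The 3 arrays a day limit the precision, and signal over background was not analysed here.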

Other observations

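Several further gene families were examined and their members trimmed after their values were seen, and their counts are descriptions only. For comparison, 2.8% of all rows rose and 1.91% fell, and the median difference over all rows was -0.0019. All 9 measured subunits of the CCT chaperonin, which folds actin and tubulin, had negative differences (median -0.51), and 4 fell by limma adjusted p: Cct6a (-0.80), Cct2 (-0.66), Tcp1 (-0.63) and Cct3 (-0.57). Of 24 nucleolar genes of ribosome assembly, 6 fell and 1 rose (median -0.25), led by Tex10 at -0.91 and with Nop10 as the rise (0.61). Of 32 translation initiation factors, 4 fell, Eif4b (-0.96) and Eif3h (-0.93) by the most, and Eif4a2 rose by 0.50 (median -0.25). Among 18 heterogeneous nuclear ribonucleoproteins, Hnrnpd (-0.91), Hnrnph1 (-0.73) and Hnrnpf (-0.52) fell and none rose.

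Of 10 mannosidase and fucosidase genes, of several cell compartments, Manba (1.07), Man2b2 (0.82) and Fuca1 (0.77) rose, 4 were below 0 and the median was 0.06. Of 12 class I histocompatibility genes, which share long stretches of sequence so that probes may read several of them, H2-D1 rose by 1.37 and H2-Q7 by 0.87 (median 0.00). The share of all rows that rose was 2.8%.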
